A study of Mus musculus with 16 samples.

Results

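The arrays measured the mRNA of 10 surface molecules by which macrophages and other antigen-presenting cells are costimulated, costimulate or restrain T cells, or mark their own activation: Cd40, Cd80, Cd83, Cd86, Cd274, Icosl, Cd44, Cd69, Il7r and Slamf7. They are 10 of the 34779 gene names on the array. Every probe that the array design names after 1 of them was taken, whatever its values, which gave 15 of 55681 probes. There were 4 probes for Cd44, 2 each for Cd80 and Icosl, and 1 for each other gene. A probe was tested if some condition had it well above background on each of its 4 arrays, which held for 11 of the 15 probes (8 genes) and for 21591 probes in all. Neither Cd69 nor Slamf7 had a tested probe.

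The cells were RAW264.7, a macrophage-like line grown from a mouse tumour, kept in low serum before treatment. For 120 min they received the vehicle DMSO or cordycepin (20 μM), a nucleoside that resembles adenosine and blocks the addition of poly(A) tails. LPS, the bacterial cell wall component that macrophages sense through Toll-like receptor 4, was added at 1 μg/ml for the last 60 min or left out. The conditions DMSO, cordycepin, LPS+DMSO and LPS+cordycepin had 4 replicates each, every replicate collected on a day of its own, so that all groups share the cell line, the low serum and DMSO, in which cordycepin was dissolved too. The probes measured pooled RNA of each culture, so that fewer expressing cells and less RNA per cell cannot be told apart, and nothing was measured at the cell surface. The RNA was labelled from its poly(A) tail, so that with cordycepin less RNA and less labelling of it cannot be told apart.

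T cells need a second signal beside the antigen. CD80 and CD86 give it through CD28, ICOSL through ICOS, and CD274 (PD-L1) opposes it through PD-1, while CD40 receives the CD40 ligand of T cells and drives the antigen-presenting cell to mature. In macrophages, Toll-like receptors raise many such genes through NF-kB, and CD44 (a hyaluronan receptor), CD69, the interleukin-7 receptor and SLAMF7 are surface molecules that change as leukocytes are activated.

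Signals ran from 37.1% to 51.2% of spots well above background per array, and no spot was saturated. Of 9 macrophage markers, 8 were well above background on all arrays, and no B cell, NK cell or fibroblast marker (0 of 4, 0 of 2 and 0 of 3) was. Of 5 dendritic cell markers 2 were, and of 5 T cell markers 3 were (Cd3e, Cd4 and Lck). On some but not all arrays, 2 of 4 B cell, 2 of 3 fibroblast, 2 of 5 dendritic cell, 2 of 5 T cell and 1 of 9 macrophage markers were. The B cell marker Cd79a and the macrophage marker Mertk were so on 12 arrays each. DMSO replicate 2 stood apart from the other DMSO arrays: it was a high outlier for 2.41% of 21582 probes, against 0.269% to 0.607% on the other 3. It also had the highest DMSO signal of Cd40, Cd86, Cd274 and the tested Icosl probe, so their comparisons with DMSO are given with and without it. Replicate 3 was likewise highest for 4 of the 11 tested member probes. The lowest DMSO signal of Cd83, the tested Cd44 probes and Cd80 A_55_P2001218 was that of replicate 2.

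CD44 transcripts can be spliced with or without a run of variable exons. Of the 4 Cd44 probe sequences 3 are shown, since they tell which part of the transcript each value comes from. Positions are those of the array files (mm9, minus strand). The first and second lie in the variable region, whose exons the standard form of CD44 lacks, and the third covers the end of the coding sequence, with the stop codon in capitals.
Cd44 A_55_P2166488, chr2:102677971-102678030: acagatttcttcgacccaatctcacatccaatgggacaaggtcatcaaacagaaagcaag
Cd44 A_55_P2166486, chr2:102672645-102672704: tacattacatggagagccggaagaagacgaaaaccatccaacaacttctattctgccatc
Cd44 A_55_P2166501, chr2:102654278-102654337: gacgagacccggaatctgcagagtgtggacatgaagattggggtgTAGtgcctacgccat
Both variable-region probes were open in 3 of 3 reading frames. The remaining probe, A_55_P2064043, lies nearest the 3′ end (chr2:102651398-102651457), 2.9 kb from the stop codon probe and 21.2 and 26.6 kb from the variable-region probes.

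The first question was how these genes responded to LPS within 60 min. Cd83, Cd40 and the Cd44 variable-region probe A_55_P2166488 rose, and Cd274 fell. A probe was called where limma gave a Benjamini-Hochberg p, adjusted over all tested probes, below 0.05 and the change was 2-fold or more. In this way 3 of the 11 member probes were higher in LPS+DMSO than in DMSO and 1 was lower, beside 2.15% and 2.71% of all tested probes (4 of 11 against 4.86% in either direction). With no minimum fold there were 6, beside 14.5% of all tested probes. The median log2 change was 0.38 over the 11 probes and -0.04 over all probes. The Cd44 probe entered the test only through its LPS+DMSO arrays, so its place in that count was favoured by the filter. The members themselves were chosen with earlier results of these data known, so these shares are no independent test. Among probes well above background on all 16 arrays, 3 member probes were called.

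Cordycepin before LPS left Cd83, Cd44 A_55_P2166488 and Il7r lower than in LPS+DMSO. These were 3 of 11 probes, beside 1.61% of all tested probes that were lower. The filter favoured the Cd44 probe here too, since it passed only through the group where it was high. Of the 10 member probes well above background on all 16 arrays 2 were called, again with no share over all such probes determined. No member was higher (0 of 11, and 0 at an unadjusted p under 0.05 in limma), beside 7.11% of all tested probes and 16.5% at that unadjusted p, and calls in either direction made up 8.73%. With no minimum fold 4 member probes passed, beside 20.2%. The median log2 change was -0.26 over the 11 probes and 0.03 over all. This comparison and that of LPS+DMSO with DMSO share the LPS+DMSO arrays.

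**Figure D1:**
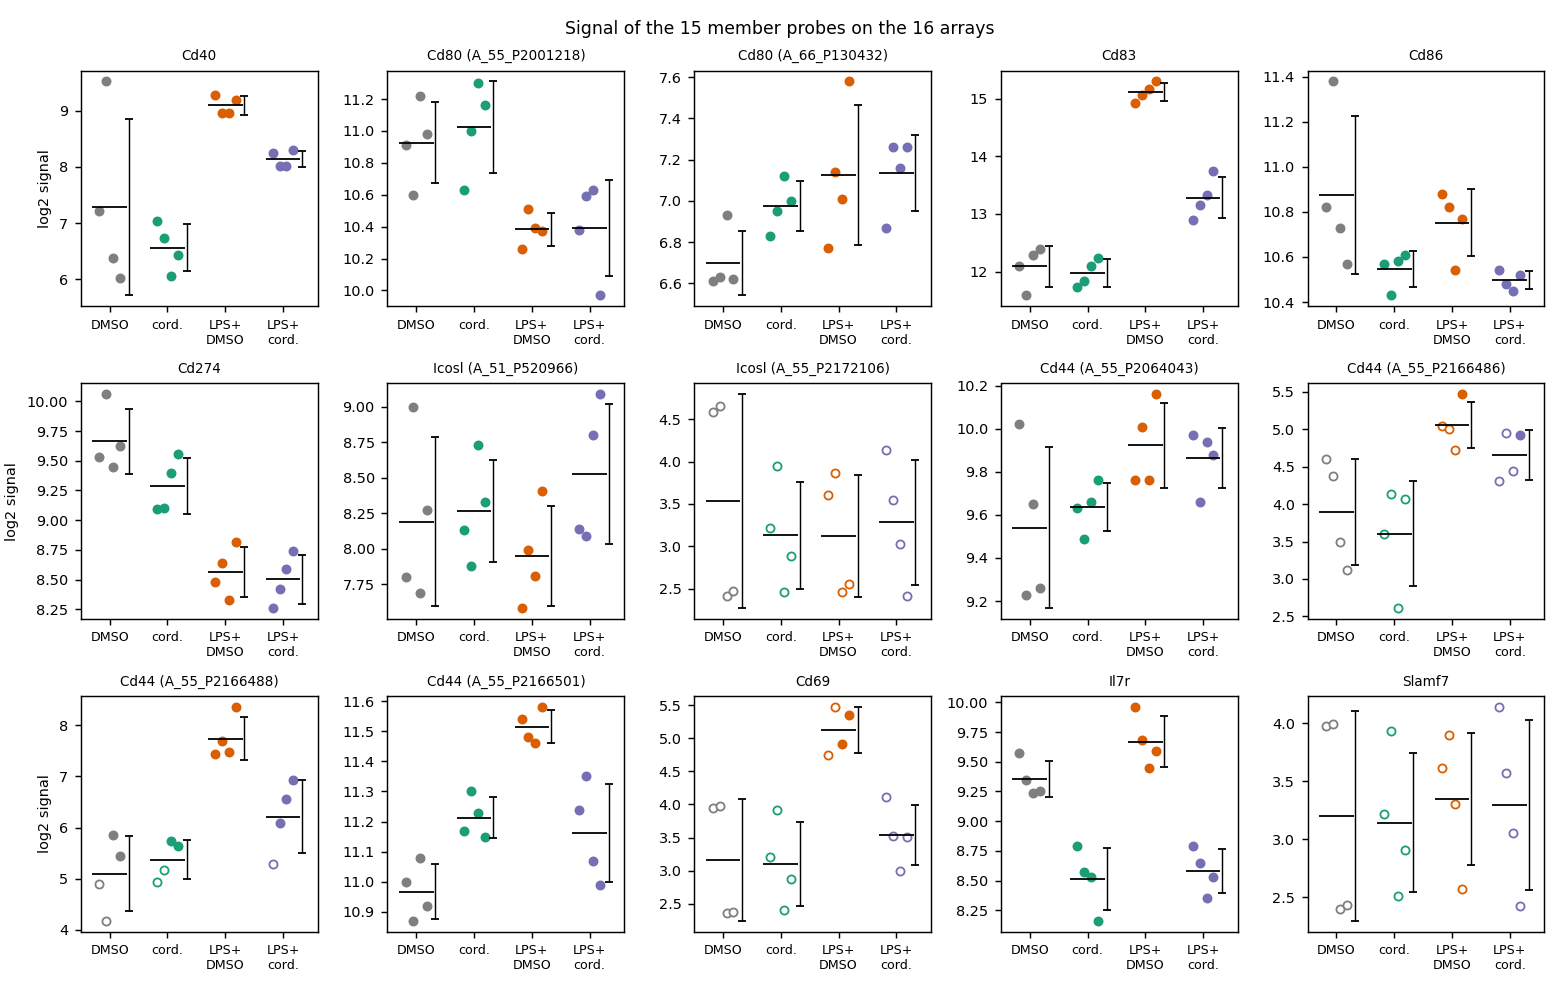
Log2 signal (vertical axes, each with its own range) of the 15 member probes on the 16 arrays, by condition (cord., cordycepin). Points are arrays in the order of replicates 1 to 4, filled where well above background and open where not; lines are means and bars to their right are 1 SD (n = 4). The 4 LPS+DMSO points of Cd83 lie above 14.9 and those of all other arrays at 13.74 or below, and DMSO replicate 2 of Cd40 (9.52) lies apart from the other DMSO points.

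Among the ligands of the B7 family, Cd274 (chr19:29462363-29462422) was the only one called. Its log2 signal was 9.53, 10.06, 9.45 and 9.62 in DMSO, 8.48, 8.64, 8.33 and 8.82 in LPS+DMSO, 9.09, 9.1, 9.4 and 9.56 in cordycepin, and 8.26, 8.42, 8.59 and 8.74 in LPS+cordycepin. All 8 arrays with LPS were below all 8 without it. Between arrays with and without LPS, 18.6% of all tested probes separated in DMSO and 15.1% in cordycepin. With LPS the Cd274 signal fell by 1.10 in DMSO (2.14-fold, standard error 0.16, adjusted p = 0.000173, limma), in each of the 4 replicates. In cordycepin the change with LPS was -0.79, short of 2-fold (limma adjusted p = 0.00478), and the difference between both responses was 0.31 (95% interval -0.17 to 0.79), or 0.18 without DMSO replicate 2. Cordycepin alone gave -0.38 (-0.72 to -0.04, limma adjusted p = 0.132), or -0.24 without that array. Cordycepin with LPS changed it by -0.07 (-0.41 to 0.27). The fall lay close to the 2-fold limit: without DMSO replicate 2 it was -0.96 (limma adjusted p = 0.000415) and no longer called. It was -0.97 with another background correction (normexp) and -0.94 in the value table of the authors. Scaling to spiked-in controls gave -1.19 with an adjusted p of 0.0934 (limma).

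Cd86 (chr16:36603961-36604020), the B7 ligand that resting macrophages commonly carry, differed by less than 2-fold in every comparison. Its signal was 10.82, 11.38, 10.73 and 10.57 in DMSO and 10.88, 10.82, 10.54 and 10.77 in LPS+DMSO. The groups overlapped, and the change was -0.12 (95% interval -0.41 to 0.18), or 0.05 without DMSO replicate 2. In LPS+cordycepin it was 10.54, 10.48, 10.45 and 10.52, which just did not overlap with LPS+DMSO (-0.26, -0.55 to 0.04, limma adjusted p = 0.246). Such separation was found for 23.4% of all tested probes in this comparison. Without DMSO replicate 2, which enters the shared estimate of the spread, the same -0.26 had an adjusted p of 0.045 (limma), still short of 2-fold. In cordycepin alone Cd86 was 10.57, 10.43, 10.58 and 10.61, overlapping with DMSO (-0.33, -0.62 to -0.03, limma adjusted p = 0.131), or at -0.16 without DMSO replicate 2. The interaction was 0.07 (-0.35 to 0.49), or -0.1 without that array.

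The 2 probes of Cd80, the other CD28 ligand, lie 7.4 kb apart and had LPS changes of opposite sign. The probe A_55_P2001218 (chr16:38486772-38486831) was 10.91, 10.6, 11.22 and 10.98 in DMSO and 10.26, 10.51, 10.39 and 10.37 in LPS+DMSO, without overlap, as for 18.6% of all tested probes. Its change was -0.55 (standard error 0.17, adjusted p = 0.042, limma), less than 2-fold. The probe A_66_P130432 (chr16:38479343-38479402) was 6.61, 6.63, 6.93 and 6.62 in DMSO and 6.77, 7.14, 7.01 and 7.58 in LPS+DMSO, a change of 0.43 (95% interval 0.11 to 0.75, limma adjusted p = 0.0734). Cordycepin with LPS gave 0.01 for both (-0.35 to 0.37 and -0.31 to 0.33). In cordycepin, the change with LPS was -0.63 for the first probe (limma adjusted p = 0.0306) and 0.16 for the second (-0.16 to 0.49). Cordycepin alone gave 0.1 (-0.26 to 0.46) and 0.28 (-0.04 to 0.6), the latter higher in 4 of 4 replicates. No single direction with LPS could therefore be given for Cd80.

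Icosl, which encodes the ligand of ICOS, was measured by A_51_P520966 (chr10:77542211-77542270) alone, since the second probe was well above background on 0 of 16 arrays. The signal was 7.8, 9, 7.69 and 8.27 in DMSO, 7.58, 7.99, 7.81 and 8.41 in LPS+DMSO, and 8.14, 8.09, 8.8 and 9.09 in LPS+cordycepin. It was higher with cordycepin and LPS than with LPS in 4 of 4 replicates, but the groups overlapped (0.58, 95% interval -0.05 to 1.22, limma adjusted p = 0.22). The LPS change was -0.24 (-0.88 to 0.39), or 0.03 without DMSO replicate 2. In cordycepin alone Icosl was 8.13, 7.88, 8.73 and 8.33, within the range of DMSO (0.08, -0.56 to 0.71), or at 0.35 without DMSO replicate 2. The interaction was 0.51 (-0.39 to 1.41), or 0.24 without that array.

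Cd40 (chr2:164897085-164897144), the receptor of CD40 ligand, was 7.21, 9.52, 6.38 and 6.03 in DMSO and 9.28, 8.95, 8.96 and 9.18 in LPS+DMSO. Of the DMSO arrays, replicate 2 alone reached the range with LPS, and there the LPS change was -0.58 against 2.07, 2.58 and 3.15 on the other days. The mean change was 1.81 (3.5-fold, standard error 0.52, adjusted p = 0.0299, limma; higher in 3 of 4 replicates). It was 0.75 on the slide that holds replicates 1 and 2 and 2.87 on the other. Without DMSO replicate 2 it was 2.55 (limma adjusted p = 7.75e-06). Each of the other 7 arrays of both conditions ended the call when left out, with changes of 1.39 to 1.85 and adjusted p up to 0.0981 (limma).

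In LPS+cordycepin the Cd40 signal was 8.24, 8.01, 8.01 and 8.29, below every LPS+DMSO array (23.4% of all tested probes separated, in either direction). It was lower by nearly the same amount on each day (-1.04, -0.93, -0.95 and -0.89). The mean of -0.95 was short of 2-fold, and with the spread shared by all conditions its 95% interval was -2.07 to 0.17 (limma adjusted p = 0.26). With DMSO replicate 2 left out of that spread, the adjusted p was 0.00765 (limma). In cordycepin alone Cd40 was 7.03, 6.73, 6.05 and 6.43, all below the LPS+cordycepin arrays, as for 15.1% of all tested probes. Against DMSO it was at -0.73 (-1.84 to 0.39, limma adjusted p = 0.413), or at 0.02 without DMSO replicate 2. The change with LPS in cordycepin was 1.58 (0.46 to 2.7, limma adjusted p = 0.0897), or with an adjusted p of 0.00042 without DMSO replicate 2 (limma). The responses in cordycepin and DMSO differed by -0.23 (-1.81 to 1.35), or by -0.97 without that array (limma adjusted p = 0.34).

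Genes of this and the later lists were each read by their brightest tested probe alone. The lists, too, were chosen with earlier results of these data known. Of 14 genes of the signalling chain behind CD40, all tested, 6 rose with LPS in DMSO and none fell. Of all tested probes, 2.15% rose and 2.71% fell. The 6 genes included Tnfaip3 and Nfkbia (5.24 and 3.28 on the log2 scale), which encode inhibitors of NF-kB, Traf1 (5.15), an adaptor of TNF receptors, and Relb (1.71), an NF-kB subunit. With cordycepin and LPS, 2 were lower than with LPS, beside 1.61% of all tested probes. These were Traf1 (-2.52) and the CD40 adaptor Traf2 (-1.61). Traf2 was also lower with cordycepin alone (-1.42). The list's median log2 change was 0.67 with LPS, against -0.04 over all probes, and -0.36 with cordycepin and LPS, against 0.03. The LPS response in cordycepin was smaller for Traf1 (interaction -1.7, limma adjusted p = 0.015) and Tnfaip3 (-1.2, limma adjusted p = 0.0111).

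Cd83 (chr13:43898276-43898335), an immunoglobulin-family protein that marks mature dendritic cells, had the largest LPS change of the 11 probes. Its signal was 12.1, 11.59, 12.28 and 12.4 in DMSO and 14.93, 15.07, 15.17 and 15.3 in LPS+DMSO. No array overlapped, as for 18.6% of all tested probes. The rise was 3.03 (8.14-fold, standard error 0.19, adjusted p = 3.1e-08, limma, 4 of 4 replicates). Without DMSO replicate 2, the lowest DMSO array here, the rise was 2.86 (limma adjusted p = 6.84e-08). In LPS+cordycepin it was 12.9, 13.16, 13.33 and 13.74, between both groups. With cordycepin the LPS-stimulated level fell by 1.84 (3.57-fold, standard error 0.19, adjusted p = 3.35e-06, limma; 4 of 4 replicates). That fall was -1.97 on the slide of replicates 1 and 2 and -1.7 on the other.

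At rest, Cd83 was 11.73, 11.83, 12.1 and 12.24 in cordycepin, overlapping with DMSO. Its change was -0.12 (95% interval -0.53 to 0.29, limma adjusted p = 0.748), or -0.29 without DMSO replicate 2. LPS still raised it in cordycepin, by 1.31 (2.48-fold, adjusted p = 0.000303, limma). Of the 11 probes it was the only one called there, beside 1.64% of all tested probes that were higher and 1.35% that were lower (2.99% in either direction). With no minimum fold 3 member probes passed, beside 7.88% of all tested probes. The order of conditions was thus LPS+DMSO, LPS+cordycepin and then DMSO and cordycepin, which did not differ beyond their spread. The LPS response was smaller in cordycepin than in DMSO (interaction -1.72, standard error 0.27, adjusted p = 0.0111, limma), in 4 of 4 replicates. Cd83 was the only member with such a difference, beside 0.148% of all tested probes with a negative one, 0.343% with one of either sign and 0.519% with no minimum size. Leaving out all arrays of replicate 1, 2 or 3 raised its adjusted p to 0.0722, 0.0703 or 0.184 (limma) at -1.74, -1.57 and -1.73, and with spiked-in scaling the adjusted p was 0.705 at -1.93. With the day as a block, it was 0.00088 (limma).

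**Figure D2:**
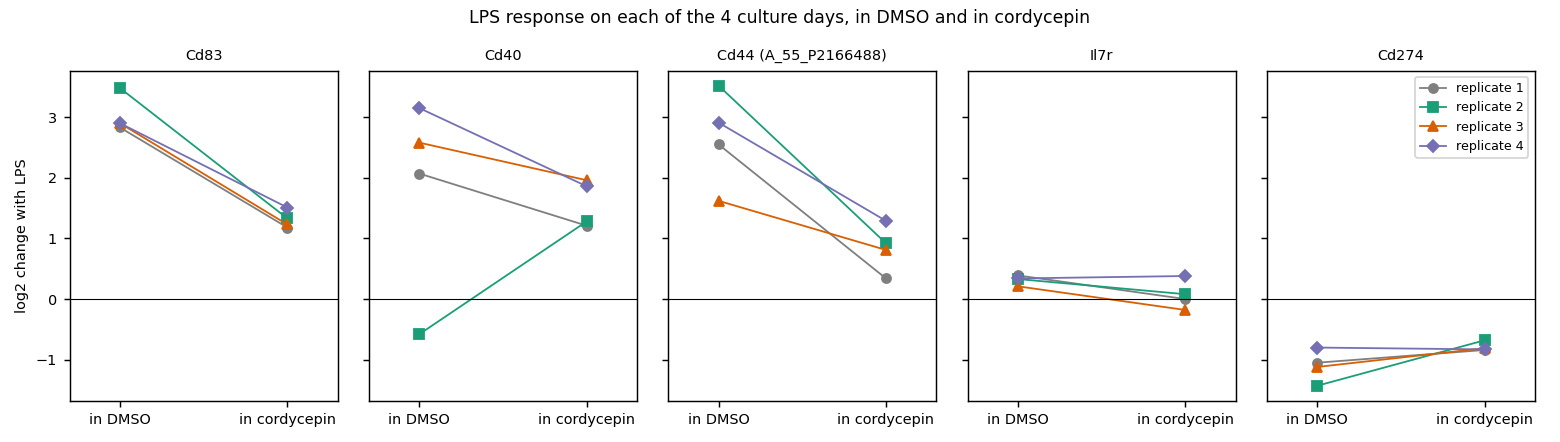
Log2 change with LPS (vertical axis) in DMSO and in cordycepin for 5 member probes. Each line joins the 2 changes of 1 replicate, that is, of 1 culture day. For Cd83 all 4 lines descend, from 2.83 to 3.48 in DMSO to 1.18 to 1.51 in cordycepin, and for Cd40 replicate 2 alone runs the other way (-0.58 to 1.28).

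Of the 3 tested Cd44 probes, only the variable-region probe A_55_P2166488 was called. It was 4.89, 4.17, 5.86 and 5.45 in DMSO and 7.44, 7.69, 7.48 and 8.36 in LPS+DMSO. It stood well above background on 2 of 4 arrays each without LPS (DMSO and cordycepin), on all 4 of LPS+DMSO and on 3 of LPS+cordycepin. The DMSO arrays not above background were at 4.89 and 4.17, under the dimmest probes that were (6.1 and 6.16). The difference in signal was 2.65 (standard error 0.38, adjusted p = 0.000139, limma), higher in 4 of 4 replicates, but with DMSO at background on 2 arrays it is no measured fold. Without DMSO replicate 2 the difference was 2.34. In LPS+cordycepin the signal was 5.28, 6.09, 6.55 and 6.93, below every LPS+DMSO array, in a comparison where 23.4% of all tested probes separated. The log2 change was -1.53 (standard error 0.38, adjusted p = 0.00759, limma). With another background correction (normexp) these differences were 1.16 and -0.78, and the second was no longer called. Over quantile and spiked-in scaling, normexp and the value table of the authors the difference with LPS ran from 1.16 to 2.83, so its size is not settled.

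In cordycepin alone A_55_P2166488 was 4.94, 5.17, 5.74 and 5.64, within the range of the DMSO arrays (change 0.28, 95% interval -0.52 to 1.08). The LPS change in cordycepin was 0.84 (0.04 to 1.64, limma adjusted p = 0.249). The interaction was -1.81 (-2.94 to -0.67), with an adjusted p of 0.204 (limma) without a block, and with normexp it was -0.75 (limma adjusted p = 0.402), in a range of -2.02 to -0.75 over the same settings. With the replicate day as a block the adjusted p was 0.0339, and with the slide as a block 0.0194 (limma). The slide block was added after the values were seen. On each of the 4 days the difference in signal with LPS was smaller in cordycepin (-2.21, -2.59, -0.81 and -1.62). However, the probe was well above background on only 2 of 4 arrays each in DMSO and cordycepin. It passed the filter only through LPS+DMSO. These values thus rest partly on background signal and measure no difference between the 2 responses.

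The probe at the end of the coding sequence, A_55_P2166501, reads all forms that share this end. It was 11, 10.87, 11.08 and 10.92 in DMSO, 11.54, 11.48, 11.46 and 11.58 in LPS+DMSO, 11.17, 11.3, 11.23 and 11.15 in cordycepin, and 11.24, 11.35, 11.07 and 10.99 in LPS+cordycepin. The spread was small, and the LPS+DMSO arrays lay above all others. Between LPS+DMSO and DMSO 18.6% of all tested probes separated, and between LPS+DMSO and LPS+cordycepin 23.4%. The LPS change was 0.55 (1.46-fold, standard error 0.09, adjusted p = 0.000474, limma), and cordycepin with LPS gave -0.35 (limma adjusted p = 0.00914), both under 2-fold. Cordycepin alone gave 0.24 (95% interval 0.05 to 0.43, limma adjusted p = 0.0788), without overlap with DMSO, as for 22.2% of all tested probes. The interaction of this probe was -0.59 (limma adjusted p = 0.0512). The probe nearest the 3′ end, A_55_P2064043, was 10.02, 9.23, 9.65 and 9.26 in DMSO, 9.76, 10.01, 9.76 and 10.16 in LPS+DMSO and 9.97, 9.66, 9.94 and 9.88 in LPS+cordycepin, so that DMSO replicate 1 lay among the arrays with LPS. It changed by 0.38 with LPS (95% interval 0.05 to 0.72, limma adjusted p = 0.133) and by -0.06 with cordycepin and LPS (-0.39 to 0.28).

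Between the 2 Cd44 probes well above background on all arrays, A_55_P2064043 and A_55_P2166501, no difference in change passed over 4 comparisons (two-sided exact permutation tests over arrays, p = 0.114 to 0.486). The tests of A_55_P2166488 against them, added after the values were seen, are not given, since it was above background on only 2 of 4 DMSO arrays.

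The second variable-region probe, A_55_P2166486, was well above background on 1 LPS+DMSO and 1 LPS+cordycepin array and was not tested. Its signal was 4.61, 4.38, 3.49 and 3.12 in DMSO, 5.05, 5.01, 4.72 and 5.47 in LPS+DMSO, and 4.31, 4.95, 4.44 and 4.93 in LPS+cordycepin. In cordycepin it was 3.6, 4.13, 2.61 and 4.07. The LPS+DMSO arrays were above the DMSO arrays, and the LPS+cordycepin arrays above the cordycepin arrays. Such separation, in either direction, was found for 18.6% and 15.1% of all tested probes. No array without LPS had this probe well above background. The mean difference in signal with LPS was 1.17 in DMSO and 1.06 in cordycepin. These values come from arrays at or near background and are no measured changes.

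**Figure D3:**
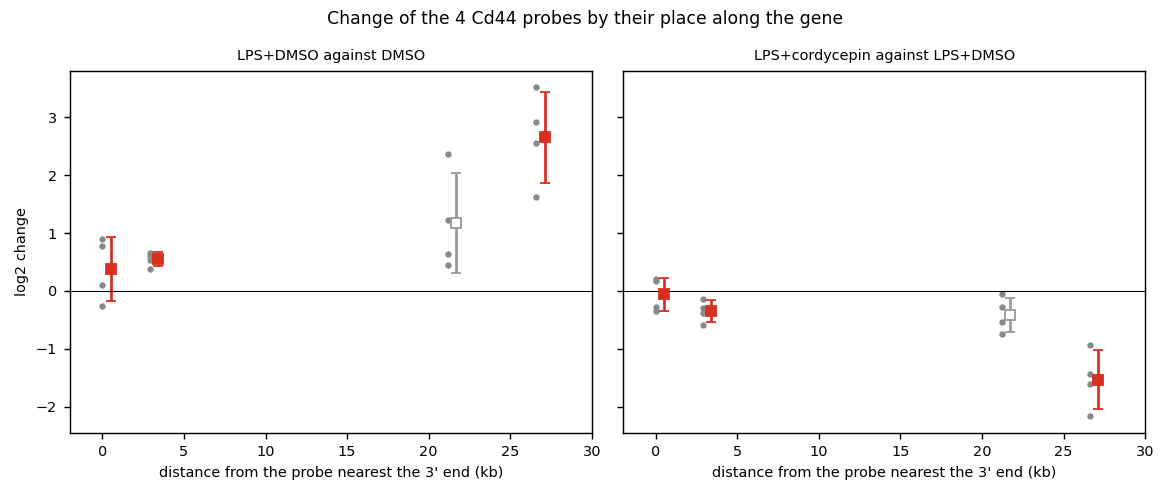
Log2 change (vertical axis) of the 4 Cd44 probes against their distance in kb from the probe nearest the 3′ end (horizontal axis), with LPS (left) and with cordycepin in the presence of LPS (right). Grey points are the 4 culture days, and squares beside them the mean with 1 SD, open for the untested probe. The mean difference in signal with LPS was 0.38, 0.55, 1.17 and 2.65 from the 3′ end upstream, and of the DMSO arrays 4 of 4 for the third probe and 2 of 4 for the fourth were not well above background.

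Cd69, a lectin that leukocytes show early in activation, was dim. It was well above background on 2 of 16 arrays, both LPS+DMSO, and was not among the tested probes. Its signal (chr6:129217697-129217756) was 3.94, 3.98, 2.36 and 2.37 in DMSO, 3.2, 3.91, 2.41 and 2.87 in cordycepin, 4.74, 5.47, 4.92 and 5.35 in LPS+DMSO, and 4.11, 3.53, 3 and 3.51 in LPS+cordycepin. All LPS+DMSO arrays were above all others. Of all tested probes, 18.6% separated between LPS+DMSO and DMSO and 23.4% between LPS+DMSO and LPS+cordycepin. No size of change is given, since 14 of the 16 arrays were not well above background. No fold limit could be set, since the dimmest probes well above background lay at 4.41 to 6.32, around the level of Cd69 with LPS. At these levels signals differed by slide: Slamf7, on 0 of 16 arrays above background, was 3.98, 3.99, 2.4 and 2.43 in DMSO, the first pair from one slide and the second from the other.

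Il7r (chr15:9435976-9436035), the alpha chain of the receptors for interleukin-7 and TSLP, was lower with cordycepin both with and without LPS. Its signal was 9.57, 9.35, 9.24 and 9.25 in DMSO and 8.79, 8.57, 8.53 and 8.16 in cordycepin, without overlap, as for 22.2% of all tested probes. With LPS it was 9.96, 9.68, 9.45 and 9.59 in DMSO and 8.79, 8.65, 8.35 and 8.53 in cordycepin. In the presence of LPS it fell by 1.09 (2.13-fold, standard error 0.15, adjusted p = 4e-05, limma; 4 of 4 replicates), with -1.17, -1.03, -1.1 and -1.06 on the 4 days. Without LPS+DMSO replicate 1 the fall was -0.99 and with normexp -0.91, both just short of 2-fold.

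Without LPS the Il7r change was -0.84 (1.79-fold, standard error 0.15, adjusted p = 0.000627, limma). It was thus past the p threshold but short of 2-fold, and no member probe was called in cordycepin against DMSO (0 of 11), beside 6.64% of all tested probes (5.55% higher and 1.09% lower). At an unadjusted p under 0.05 there were 4 (limma), 1 higher and 3 lower, beside 28.4% of all tested probes in either direction. Cd44 A_55_P2166501 was higher (0.24). Il7r, Cd86 and Cd274 were lower, and the changes of Cd86 and Cd274 were smaller without DMSO replicate 2 (-0.16 and -0.24). In the same comparison, at an adjusted p under 0.05 with any fold there was 1, beside 16.8% of all tested probes. The LPS change of Il7r was 0.32 in DMSO (95% interval 0.01 to 0.63, limma adjusted p = 0.185) and 0.07 in cordycepin (-0.24 to 0.38). The interaction was -0.25 (-0.69 to 0.19), so a difference between the effects of cordycepin with and without LPS was not detectable.

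**Figure D4:**
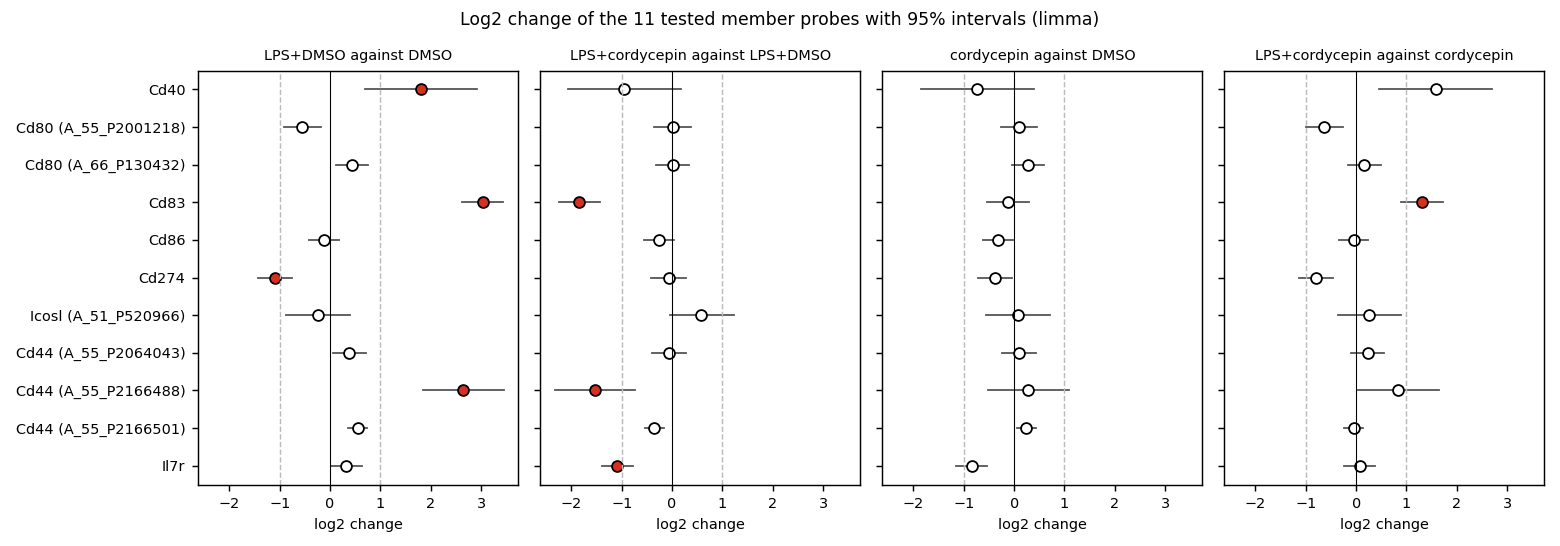
Log2 change (horizontal axes) of the 11 tested member probes in 4 comparisons, with 95% intervals from limma. Filled points passed an adjusted p under 0.05 and 2-fold, and dashed lines mark 2-fold. There were 4, 3, 0 and 1 filled points from left to right, and the intervals were widest for Cd40, whose DMSO arrays ranged from 6.03 to 9.52.

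With LPS, in either direction, 6 of 14 tested genes of CD40 signalling were called, and 0 of 11, 1 of 5, 0 of 5, 1 of 12 and 1 of 13 in the other lists. These are counts of genes, each read by its brightest tested probe, while the 4.86% called over all tested probes is a share of single probes. Other probes of these genes were not counted. Of 19 other genes of the B7 and CD28 families and checkpoints, 11 were tested and none was called with LPS. With cordycepin alone 1 was lower, beside 1.09% of all tested probes. This was Cd200r1 (-1.47, adjusted p = 1.64e-06, limma), an inhibitory receptor of myeloid cells. Of 13 TNF superfamily costimulators 5 were tested: Tnfsf9, the ligand of 4-1BB, rose with LPS in DMSO (2.96) and in cordycepin (2.64), and Tnfrsf4 (OX40) was higher with cordycepin, by 1.45 without and 1.05 with LPS. Among 12 tested of 18 genes for adhesion and antigen presentation, Icam1, the ligand of LFA-1, rose with LPS in DMSO (2.67) and in cordycepin (1.74), and none was called lower. By their brightest probes, none of 5 tested of 10 SLAM family genes was called in any comparison.

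Of 17 partners of CD44, CD69 and the interleukin-7 receptor, 13 were tested. S1pr1, the receptor with which CD69 interacts, fell with LPS (-1.17, adjusted p = 0.000301, limma), and Klf2, a transcription factor that drives S1pr1 in lymphocytes, was lower with cordycepin alone (-1.21, adjusted p = 0.00903, limma). The other chains of the 2 receptors that IL7R forms were not called. Il2rg changed by 0.33 with LPS and -0.09 with cordycepin and LPS, and Crlf2 by -0.09 and -0.15. Spp1, a secreted ligand of CD44, was at 0.15 and -0.2.

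As a description, the probes of other genes most like each LPS-responsive member over the 16 arrays were sought by Pearson's r, where all arrays share the same 4 conditions and 2 slides. For Cd40 these were Csf1 (r = 0.984), Ifit1 (0.97) and Ccl5 (0.961), which with DMSO replicate 2 left out stood at 0.985, 0.966 and 0.954. For Cd83 they were Mtmr14 (0.974), Filip1l (0.972) and Fosl2 (0.971), and for Cd274 Tsc22d3 (0.969), Hbp1 (0.962) and Slc26a11 (0.958). For Cd44 A_55_P2166488 they were Cd83 (0.951), Mideas (0.946) and Cd14 (0.938). This Cd44 probe was not well above background on 5 of the 16 arrays, so its pattern is partly background signal.

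Of the 10 genes, 6 had a promoter in the RefSeq table (GRCm38.p6): Slamf7, Cd44, Icosl, Il7r, Cd80 and Cd274. In the 250 bases before their starts, GGGACTTTC and GGGNNTTTC were found in 0 of 6 on either strand, against 0.289% and 3.72% of 32851 promoters. GGGNNTTTC includes GGGACTTTC. The degenerate NF-kB consensus, whose matches can overlap with theirs, was found once, in Icosl, 111 bases before the start on the minus strand, against 7.25% of promoters. These letters were not searched elsewhere.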

How the data were processed

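RNA of 16 RAW264.7 cultures was hybridised to Agilent 1-colour mouse arrays (60-base probes, mm9) after labelling with Cy3 from the poly(A) tail. The deposited scanner files hold intensity after the authors' background and trend correction in Agilent Feature Extraction 10.10.1.1, without normalization between arrays. The deposited log2 value table of the authors (23730 probes, correlation with the scanner values 0.9947 to 0.998) served as an alternative; its normalization is not given in the sources used here. Other deposited columns used were the software's flags. Intensity was log2-transformed, 108 to 237 outlier spots per array were left out, spots of a probe were averaged (127 missing values among all probes), and each array was centred on the 75th percentile of those 18057 probes that stood well above background on every array.

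Each probe was fitted on its own with limma 3.58.1 (R 4.3.3) over all 16 arrays with 1 mean per condition. On simulated data for LPS+DMSO against DMSO (21503 probes), 90 of 100 changes of 1.5 log2 and 100 of 100 of 2 were recovered, with 4 false calls. The simulated noise was independent between arrays, with no day or slide in common, so these counts do not cover such structure. Replicates share a culture day by the series' design text. Residuals of the same number correlated by 0.19 on average (-0.07 to 0.42), and those of other numbers on the same slide by 0.17. Blocks for both were alternatives, as were other scalings, background corrections, filters, thresholds, tests and left-out arrays. For single probes, the left-out arrays, the slide block and the fit of only the conditions compared were added after the values were seen. The members and gene lists were chosen with earlier results of these data known. Named were all member probes, called genes of the lists (at most 4 a list), direct partners and the 3 nearest patterns. Python 3.11.15 read the files and drew the plots. The number of arrays limits the precision.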

Additional observations from a re-analysis of the deposited data

Results flagged for a closer look

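For Cd83 the response to LPS differed between vehicle and drug, with an interaction of -1.72 on the log2 scale (standard error 0.27, adjusted p = 0.0111, limma). The second Cd80 probe, A_66_P130432, had 1 DMSO array apart from the other 3. Replicate 3 was at 6.93, while the others lay between 6.61 and 6.63. This was 1 such array among 60 groups of 4 arrays examined, and chance gives about 1 in 20 groups.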

How the results depend on the processing

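Over 29 settings of scaling, background, values, blocks, samples fitted and left-out replicates or arrays, 1584 alternative values for 55 changes of the members were computed, of which 1553 kept their side of the threshold, 25 lost the call and 6 gained it, and no called change reversed. Other filters, thresholds, tests and single slides are not in that tally and were compared by counts of calls. In LPS+DMSO against DMSO, 4 probes were called, and 2 with normexp (without Cd40 and Cd274). Of all tested probes, 284 were called higher and 204 lower with normexp, beside 464 and 586 without it. With no filter on dim probes Cd40 was lost and the dim Cd69 gained. Cd40 was also lost on slide 1 alone, with only the conditions compared, and with the methods' univariate test, unadjusted or adjusted. Cd274 was lost on slide 2 alone, with spiked-in scaling and with the authors' values. In LPS+cordycepin against LPS+DMSO, 3 were called, and 1 with normexp (Cd83). Here 920 of all tested probes were called higher and 157 lower with normexp, beside 1536 and 348 without it. With the methods' univariate test, adjusted, Cd44 A_55_P2166488 was lost, and with no filter the dim Cd69 was gained. In cordycepin against DMSO, 0 were called, and 1 with no minimum fold (Il7r). In LPS+cordycepin against cordycepin, 1 was called. This became 0 with scaling to spiked-in controls (Cd83 at 1.00, limma adjusted p = 0.301), and 2, with Cd40, with the slide as a block, on slide 2 alone, with only the conditions compared, and with the methods' univariate test, unadjusted or adjusted. It was 3 with no minimum fold, and 1 to 2 with replicates or arrays left out. In the interaction, 1 was called, against 0 with spiked-in controls, with no filter and on either slide alone, and 0 to 1 with replicates or arrays left out. With the replicate block or the slide block it was 2, since Cd44 A_55_P2166488 was added. That probe was not well above background on 5 of the 16 arrays. The replicate block changed no other call. Scaling to spiked-in controls moved the median of all probes to -0.13 with LPS, -0.12 with cordycepin and LPS, 0.11 with cordycepin and -0.36 for LPS in cordycepin. Among changes that were not called, signs turned between scalings for 11, such as Cd274 with cordycepin and LPS (-0.22 to 0.03). Dim probes (Cd69, Slamf7, Cd44 A_55_P2166486 and the second Icosl probe) give no level below background.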
